A study of Homo sapiens with 27 samples.

Results

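The comparison described here set MM134 LTED-D directly against MM134 LTED-E, a pair of variants of the same breast cancer cell line, over all genes expressed in the MM134 libraries. MM134 (MDA-MB-134VI) is a human line of invasive lobular carcinoma that expresses the estrogen receptor. Long-term estrogen-deprived (LTED) variants were derived from it in medium with charcoal-stripped serum, which holds little steroid hormone, as models of resistance to aromatase inhibitors. The MM134 libraries number 15 of the 27 in the series. There are 3 for the parental cells and 3 for each of the variants A, B, D and E. The comparison contrasts the 6 libraries of LTED-D and LTED-E within a fit of all 15. The labels name no other treatment or genetic change in either variant. Both were derived independently and are also called clones in the study, so each is 1 culture, and its 3 libraries are replicate samples of that culture. The p-values therefore measure the spread between samples within a culture, pooled over all 15 MM134 libraries. They do not measure the spread between independent derivations. For the parental cells, hormone was withdrawn 3 days before RNA was taken.

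Total estimated counts were 32284183 to 45318846 in LTED-D and 40460425 to 52502195 in LTED-E. Over the 1000 most variable genes, the median distance between an LTED-D and an LTED-E library was 50.2 (log2 of CPM plus 1, where CPM is a count scaled to the library's size), the largest among the 6 pairs of variants, whose other medians ran from 37.9 to 46.2. Libraries of the same variant lay 6.14 to 7.35 apart in LTED-D and 7.03 to 10.5 apart in LTED-E. The pair was picked for this report as the most distant variants, so that distance is a description. Luminal epithelial markers were high in both variants, with a summed level of 6584 to 6701 CPM in LTED-D and 6271 to 6443 CPM in LTED-E over 10 genes. CDH1, which encodes E-cadherin and is lost in most lobular carcinomas, was low in both, at 8.64, 10.2 and 10.7 CPM in LTED-D and 9.12, 9.07 and 8.33 CPM in LTED-E. KRT5 and CD3D, which mark basal and T cells, had at most 1 count in each of the 6 libraries, and PTPRC, the pan-leukocyte marker CD45, had 5 to 13. In all, 3 of 8 basal or myoepithelial markers and 7 of 10 immune markers did not pass the filter on low counts. Other members were expressed, among them MYLK (391 to 952 counts) and OXTR (91 to 153) of the basal list. In the immune list, ITGAM had 203 to 867 counts and CD68 had 90 to 184.

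Of the 6 libraries compared, 1 stood apart in a set of genes, of which some but not all are genes of stromal cells. LTED-D replicate 2 held 186 counts of COL3A1, a fibrillar collagen of fibroblasts, against 3 and 1 in the other LTED-D libraries and 1 or 2 in LTED-E. LUM, VCAN, DCN, MMP2, IGFBP1 and PAEP were likewise raised in that library. So were MUC16 (76 counts against 0 and 0 in the other LTED-D libraries), GNLY (57 against 9 and 13) and SPP1 (39 against 0 and 1). In all, 19 genes had at least 30 counts there with more than 5 times the CPM of both other LTED-D libraries. The same excess was seen in 3 genes of each other LTED-D library and in 5 to 9 genes of each LTED-E library. Among the parental libraries, which share the fit, it was seen in 3, 9 and 69 genes of replicates 1, 2 and 3. Of the 19 genes, 14 were also in excess in parental replicate 3, 8 passed the filter on low counts, and none was called between LTED-D and LTED-E. The part of this signal in the results was not tested beyond leaving the library out, which gave 2835 differentially expressed genes in place of 3030.

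Estrogen receptor α, encoded by ESR1, is a nuclear receptor that luminal breast cancer cells use to drive growth when estrogen is present. Cells kept without estrogen can grow on other supplies, and lipid synthesis, growth factor receptors and changes in the receptor itself have been studied in LTED models. LTED variants that were derived independently can differ from one another, and what made LTED-D and LTED-E differ was not tested.

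Between LTED-D and LTED-E, 3030 of 26061 genes tested were differentially expressed (DE), by edgeR's quasi-likelihood test with an adjusted p under 0.001 and a change of more than 1.5-fold. This is 11.6% of the genes tested. LTED-D was higher for 1990 genes (7.64% of those tested) and LTED-E for 1040 (3.99%), and 2410 of the DE genes were protein coding. The counts of DE genes in each gene list below stand against these shares. The change was at least 4-fold for 467 genes higher in LTED-D and for 208 higher in LTED-E. The median log2 fold change over all genes tested was -0.03, where a positive value means a higher level in LTED-D here and throughout. The 3 libraries of one variant did not overlap with those of the other for 54.4% of all genes tested, so non-overlap alone does not single out a gene. In bulk RNA, fewer cells that express a gene and less RNA per cell cannot be told apart. At the low end, 74 genes higher in LTED-D had 3 or fewer counts in every LTED-E library and 41 genes higher in LTED-E had 3 or fewer in every LTED-D library. For such genes the fold is given as a lower bound against 3 counts per library.

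**Figure D1:**
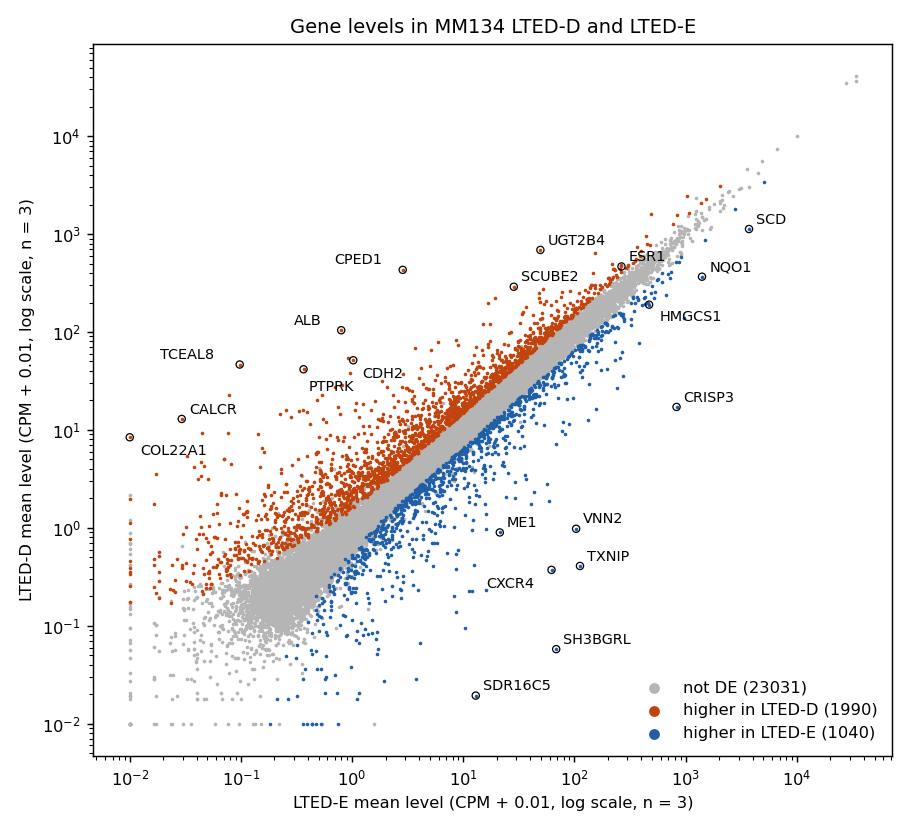
Mean level of each gene tested in LTED-E (x axis) and LTED-D (y axis), as CPM plus 0.01 on log scales, with 3 libraries per variant and DE genes in orange (1990 higher in LTED-D) or blue (1040 higher in LTED-E). CPED1, ALB and TCEAL8 lie far above the diagonal, and CRISP3, VNN2 and SH3BGRL lie far below it.

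Among the protein-coding genes with the largest differences, several were on in LTED-D and at or near zero in LTED-E. COL22A1, a collagen of tissue junctions, was measured at 8.67, 8.36 and 8.18 CPM in LTED-D and at 0 in all 3 LTED-E libraries, at least 129-fold higher. CALCR, the calcitonin receptor, reached 13.2, 12.9 and 12.8 CPM in LTED-D against 0, 0 and 0.0581 CPM in LTED-E, a difference of at least 198-fold. CPED1, a gene of little known function on chromosome 7 (chr7:120988697-121297442 in hg38, annotated in GENCODE), was at 433, 442 and 417 CPM in LTED-D and 2.25, 2.80 and 3.48 CPM in LTED-E (log2 fold change 7.22 ± 0.09 SE, adjusted p = 3.16e-20 in edgeR). In each of these genes the lowest LTED-D library was far above the highest LTED-E library. In the parental cells COL22A1 and CALCR had means of 0.0107 and 0.0197 CPM and CPED1 one of 0.218 CPM, whereas LTED-A and LTED-B held 3.65 and 4.63 CPM of CALCR and 67.4 and 46.3 CPM of CPED1. ALB, which encodes serum albumin, was at 102, 107 and 103 CPM in LTED-D and 0.568, 0.615 and 1.18 CPM in LTED-E (7.0 ± 0.10). PTPRK, a receptor-type tyrosine phosphatase of cell contacts, was at 42.5, 42.1 and 40.2 CPM against 0.544, 0.233 and 0.290 CPM (6.90 ± 0.23), and the parental cells and the other variants lay at or under 1.25 CPM on average.

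Other genes were missing from LTED-E alone or differed at lower levels. TCEAL8, an X-linked member of the transcription elongation factor A-like family (chrX:103252995-103255192), was at 45.3, 47.9 and 46.4 CPM in LTED-D and 0.0247, 0.0636 and 0.174 CPM in LTED-E (log2 fold change 8.92 ± 0.13 SE, adjusted p = 3.81e-19 in edgeR). Its mean in parental cells was 18.2 CPM, and LTED-A and LTED-B held 48.4 and 52.9 CPM. LTED-E was therefore the only 1 of the 5 MM134 groups in which its mean level was under 1 CPM. PCDHA7, a clustered protocadherin, was at 8.31, 9.85 and 9.27 CPM against 0.148, 0.148 and 0.0968 CPM (6.12 ± 0.19), and RIBC2, a protein of the ciliary doublet microtubules, at 5.56, 5.66 and 5.0 CPM against 0.0494, 0 and 0.0194 CPM, at least 82.9-fold higher. PCDHA7 shares its 3′ exons with the other genes of its cluster, so its share of reads is uncertain. The glutamate receptor subunit GRIA3 (at least 141-fold higher), the monocarboxylate carrier SLC5A8 (7.10 ± 0.20) and the ubiquitin ligase adaptor KLHL13 (6.4 ± 0.35) were also among the 12 largest differences in this direction.

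The converse pattern, near zero in LTED-D and high in LTED-E, was led by SH3BGRL, a small thioredoxin-like protein (chrX:81202102-81298547). Its level was 0.0970, 0 and 0.0463 CPM in LTED-D and 67.5, 69.9 and 68.1 CPM in LTED-E, where it was at least 819-fold higher. Parental cells held 81.0 CPM, LTED-A 9.80 CPM and LTED-B 0.543 CPM, so the level in LTED-E was the nearest to the parental one. TXNIP, an arrestin-fold protein that binds thioredoxin and restrains glucose uptake, was at 0.291, 0.788 and 0.116 CPM in LTED-D and 112, 113 and 111 CPM in LTED-E (log2 fold change -8.18 ± 0.14 SE, adjusted p = 1.58e-18 in edgeR). With 258, 118 and 282 CPM in parental, LTED-A and LTED-B cells, LTED-D was the group with the lowest level. Its closest relative ARRDC4, looked up after these values were seen, went the other way, at 15.6, 14.1 and 14.5 CPM in LTED-D and 9.86, 9.28 and 8.81 CPM in LTED-E (0.66 ± 0.07, adjusted p = 4.27e-07 in edgeR). CXCR4, the receptor of the chemokine CXCL12, was at 0.356, 0.338 and 0.394 CPM in LTED-D and 60.1, 62.1 and 64.3 CPM in LTED-E (-7.40 ± 0.08). CXCL12 itself, a classical estrogen-induced gene, was also higher in LTED-E, at 20.9, 24.1 and 21.5 CPM against 38.4, 39.6 and 38.1 CPM (-0.80 ± 0.04).

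Other genes were higher in LTED-E than in parental cells by level. SDR16C5, a retinol dehydrogenase, was at 0, 0.0281 and 0 CPM in LTED-D and 13.5, 13.7 and 11.6 CPM in LTED-E, a rise of at least 155-fold, and its mean was 0, 0.109 and 0 CPM in parental, LTED-A and LTED-B cells. VNN2, a vanin family pantetheinase, was at 1.00, 1.07 and 0.834 CPM in LTED-D and 102, 103 and 105 CPM in LTED-E (-6.75 ± 0.08), and LTED-A was the other variant with a high level (67.9 CPM). CRISP3, a secreted cysteine-rich protein, was at 18.1, 17.1 and 16.2 CPM in LTED-D and 825, 827 and 832 CPM in LTED-E (-5.60 ± 0.04, adjusted p = 1.16e-23 in edgeR), and 835 CPM in LTED-A. For VNN2 and CRISP3, LTED-E thus lay close to LTED-A, and LTED-D was nearer to the parental means of 0.0178 and 0.961 CPM. The chemokine CCL20 (-6.92 ± 0.27), the secreted antiprotease SLPI (-5.75 ± 0.18), the collagen-binding anthrax toxin receptor ANTXR1 (-6.12 ± 0.32) and the endocytic adaptor PACSIN3 (-5.72 ± 0.16) followed, together with AKR1C2. The collagen lysyl hydroxylase PLOD2 (-4.98 ± 0.19) differed from these in that its parental mean of 19.6 CPM lay above the LTED-E mean of 12.5 CPM, while the LTED-D mean was 0.407 CPM.

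**Figure D2:**
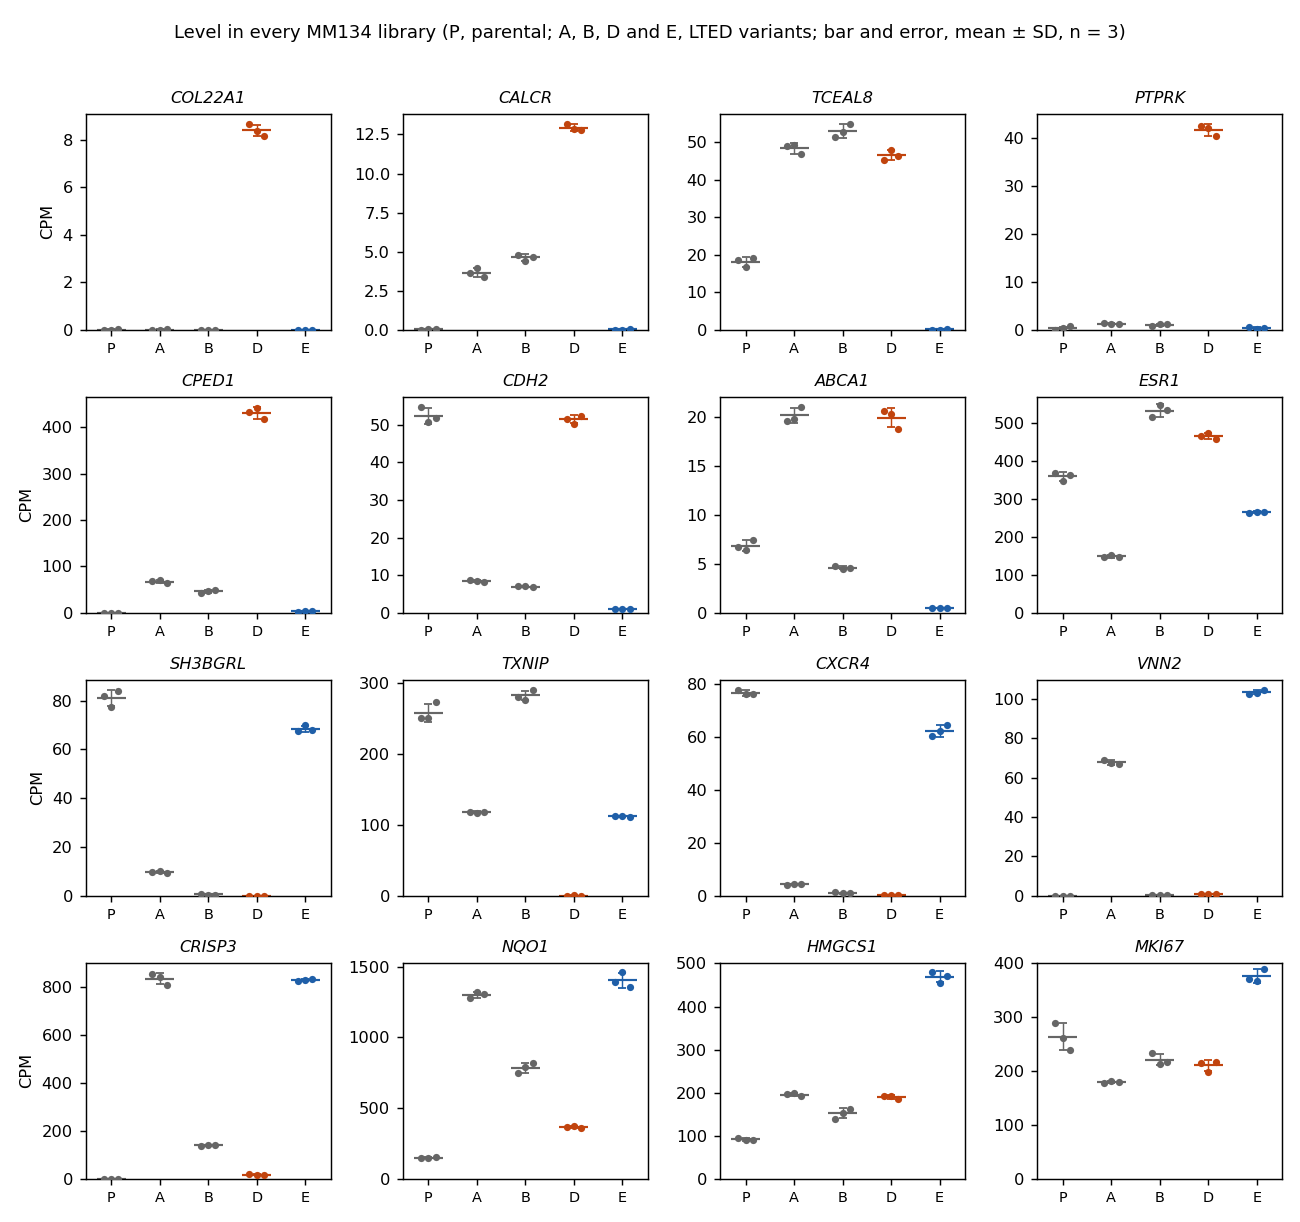
Level (CPM, linear axis from 0) of 16 genes in every MM134 library, grouped as parental (P) and LTED-A, -B, -D and -E, with points for the 3 libraries, a bar for their mean and an error bar for the SD. TCEAL8 is near zero in LTED-E alone, TXNIP in LTED-D alone, and ESR1 lies between 459 and 474 CPM in LTED-D and between 262 and 267 CPM in LTED-E.

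Among genes of at least 100 CPM in the higher variant, the largest differences involved metabolic enzymes and secreted proteins. UGT2B4, a UDP-glucuronosyltransferase that conjugates bile acids and steroids, was at 680.5, 706 and 679 CPM in LTED-D and 49.2, 48.4 and 50.5 CPM in LTED-E (3.80 ± 0.03). IL1R1, the interleukin 1 receptor, was at 199, 193 and 199.9 CPM against 16.7, 16.4 and 17.2 CPM (3.56 ± 0.03), and SCUBE2, a secreted protein of luminal tumors, at 283, 294 and 292 CPM against 29.4, 26.8 and 29.2 CPM (3.35 ± 0.04). CPED1 and ALB also belonged to the 6 largest in this direction. The remaining gene, ENSG00000273259, was at 213, 225 and 227 CPM in LTED-D and 19.9, 20.3 and 18 CPM in LTED-E and overlaps SERPINA3 on the same strand, so reads cannot be assigned to either with certainty. SERPINA3, an acute-phase antiprotease, was at 78.9, 74.0 and 82.2 CPM in LTED-D and 3.41, 6.32 and 7.90 CPM in LTED-E (3.71 ± 0.14). In the other direction, TAT, the tyrosine aminotransferase of amino acid breakdown, was at 13.2, 11.7 and 12.9 CPM in LTED-D and 135.1, 129 and 134.8 CPM in LTED-E (-3.40 ± 0.06). KYNU, which degrades kynurenine, was 9.59-fold higher in LTED-E and TFPI, the inhibitor of the tissue factor pathway, 9.10-fold higher. TXNIP, VNN2 and CRISP3 completed that group.

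ESR1 was higher in LTED-D. Its level was 466, 474 and 459 CPM there and 262, 267 and 266 CPM in LTED-E (log2 fold change 0.82 ± 0.03 SE, adjusted p = 5.64e-14 in edgeR). The parental libraries, at 369, 347 and 363 CPM, lay between the variants. Of 30 estrogen-regulated genes tested, ESR1 included, 11 were higher in LTED-D, 7 were higher in LTED-E and 12 were not DE, with a median log2 fold change of 0.36 (0.21 without LTED-D replicate 2). TFF1, a secreted trefoil protein and a standard estrogen target, was at 2439, 2348 and 2506 CPM in LTED-D and 983, 1043 and 1036 CPM in LTED-E (1.25 ± 0.04), where the parental mean was 4.28 CPM. SERPINA3, SUSD3 (3.31 ± 0.09) and STC2 (1.95 ± 0.09) had the largest changes toward LTED-D, and the antiprotease SERPINA1 (1.48 ± 0.05) and RET, a receptor tyrosine kinase (1.37 ± 0.04), followed. IGFBP5, an insulin-like growth factor binding protein, went the other way, at 0.938, 0.704 and 0.417 CPM in LTED-D and 5.59, 4.26 and 5.81 CPM in LTED-E (-2.97 ± 0.27). The secreted WNT4 was also higher in LTED-E, at 7.67, 8.39 and 7.99 CPM against 17.8, 17.2 and 17.1 CPM (-1.11 ± 0.06), as was AGR3 (-1.08 ± 0.06), and GREB1 was not DE (0.29). PGR, the progesterone receptor, was low in both variants, with means of 0.257 and 0.129 CPM, and was not DE. The list thus moved in both directions.

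Receptors and transcription factors of the luminal lineage also differed. Of 29 tested, 8 were higher in LTED-D and 3 in LTED-E, with a median of 0.08 that fell to between 0.04 and 0.05 without LTED-D replicate 2 or LTED-E replicate 2 or 3. GATA3, a factor that specifies luminal cells, was at 207, 161 and 201 CPM against 81.2, 77.2 and 84.3 CPM (1.23 ± 0.08), with the lowest LTED-D library still above every LTED-E library. ESRRG (2.01 ± 0.14) and ELF5 (3.36-fold) were also higher in LTED-D. FOXA1, the pioneer factor that opens chromatin for the estrogen receptor, had means of 556 and 541 CPM and was not DE. Toward LTED-E the list held KLF4, at 22.9, 20.5 and 19.8 CPM in LTED-D and 98.5, 93.4 and 97.3 CPM in LTED-E (-2.20 ± 0.06), EHF (-1.04 ± 0.04) and KLF5 (-0.68 ± 0.06), which are factors of epithelial differentiation.

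A group of cholesterol synthesis genes was higher in LTED-E and the cholesterol exporter ABCA1 was higher in LTED-D. SREBF2 and SREBF1 encode the membrane-bound SREBP factors, which move to the nucleus when sterols are low and activate genes of cholesterol and fatty acid synthesis. Of 29 genes of cholesterol synthesis, uptake and efflux tested, 10 were higher in LTED-E, 2 were higher in LTED-D and 17 were not DE, with a median log2 fold change of -0.49. HMGCS1, the cytosolic HMG-CoA synthase, was at 193, 192 and 186 CPM in LTED-D and 480.2, 455 and 472 CPM in LTED-E (-1.30 ± 0.04, adjusted p = 1.97e-14 in edgeR). MSMO1, a sterol demethylase, was at 99.8, 102 and 95.9 CPM against 203, 204 and 198 CPM (-1.02 ± 0.04), and STARD4, a sterol carrier, changed by -0.95 ± 0.05. SQLE, FDPS, LSS, ACAT2, EBP, IDI1 and FDFT1 were the others, with log2 fold changes from -0.79 to -0.60. CYP51A1, another sterol demethylase, was not DE, with means of 378 and 378 CPM. ABCA1, which loads cholesterol onto lipoproteins, was at 20.7, 20.4 and 18.9 CPM in LTED-D and 0.494, 0.466 and 0.465 CPM in LTED-E (5.39 ± 0.09, adjusted p = 1.35e-18 in edgeR). The intestinal sterol importer NPC1L1 moved the same way at a low level, at 2.26, 1.89 and 2.13 CPM against 0.148, 0.106 and 0.213 CPM (3.71 ± 0.24).

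The fatty acid list held 7 genes higher in LTED-E and 2 higher in LTED-D of 30, with a median of -0.16. SCD, the desaturase that makes monounsaturated fatty acids, was at 1120.3, 1134 and 1122 CPM in LTED-D and 3716, 3726 and 3707 CPM in LTED-E (-1.72 ± 0.03, adjusted p = 4.44e-18 in edgeR). ME1, the cytosolic malic enzyme that supplies NADPH, was at 0.776, 0.844 and 1.04 CPM against 21.2, 21.9 and 20.8 CPM (-4.56 ± 0.10), and CD36, a fatty acid importer, changed by -1.67 ± 0.16. SCD lay above the parental mean of 468 CPM in both variants, and ME1 lay above the parental mean of 0.0291 CPM in both. The regulator SREBF2 was higher in LTED-E, at 94.5, 88.1 and 94.2 CPM in LTED-D and 143, 134.7 and 139 CPM in LTED-E (-0.59 ± 0.04), only just beyond the fold limit, and was not called without LTED-D replicate 2 (-0.56), without LTED-E replicate 1 (-0.57) or with DESeq2 (-0.57). SREBF1 was at 153, 149.7 and 155 CPM against 234, 219.9 and 230.2 CPM (-0.58 ± 0.04) and just missed that limit. FASN, the fatty acid synthase, was not DE, at 1882, 1773 and 1922 CPM in LTED-D and 2266, 2098 and 2187 CPM in LTED-E (-0.23 ± 0.05). ACACB (1.15 ± 0.04) and SCD5 (0.77 ± 0.04), which encode the mitochondrial acetyl-CoA carboxylase and a second desaturase, were higher in LTED-D. Of the fatty acid oxidation and ketone genes, 5 of 28 were higher in LTED-D and 1, the thiolase ACAA2 (-0.64 ± 0.04), was higher in LTED-E (median 0.10). These shares of 17.9% and 3.57% stand against 7.64% and 3.99% of all genes tested. The dehydrogenase ACADS (0.93 ± 0.06) and the isomerase ECI1 (0.83 ± 0.04), which act on fatty acids in mitochondria, were among those higher in LTED-D. ACADS and ACACB lie on chromosome 12 and ECI1 on chromosome 16, in regions shifted as a whole toward LTED-D that are described below.

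Promoters of the cholesterol and fatty acid lists were searched because the cholesterol list moved largely toward LTED-E. Only those with a match are shown, and both are from the fatty acid list. The 250 bases before each RefSeq gene start (GRCh38.p14) were searched on both strands for TCACNCCAC, the core of the sterol response element that SREBPs bind. Among 14097 genes tested that had a promoter sequence, 0.865% held it. It stood in none of 22 promoters of the cholesterol list and in 2 of 26 of the fatty acid list, those of SREBF2 and of MID1IP1, an activator of acetyl-CoA carboxylase. MID1IP1 was higher in LTED-E, at 29.9, 28.1 and 29.7 CPM in LTED-D and 54.7, 54.6 and 55.8 CPM in LTED-E (-0.92 ± 0.04). The match lies 133 bases before the start of SREBF2 (chr22:41832855-41833104, plus strand) and 40 bases before that of MID1IP1 (chrX:38801209-38801458, plus strand). Both sequences read 5′ to 3′ with the match in capitals, on the opposite strand in MID1IP1.
SREBF2: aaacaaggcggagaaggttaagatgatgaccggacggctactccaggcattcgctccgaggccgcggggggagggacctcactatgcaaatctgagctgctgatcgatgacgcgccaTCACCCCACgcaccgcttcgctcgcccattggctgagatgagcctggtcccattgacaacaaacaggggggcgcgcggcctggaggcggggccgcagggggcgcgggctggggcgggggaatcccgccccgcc
MID1IP1: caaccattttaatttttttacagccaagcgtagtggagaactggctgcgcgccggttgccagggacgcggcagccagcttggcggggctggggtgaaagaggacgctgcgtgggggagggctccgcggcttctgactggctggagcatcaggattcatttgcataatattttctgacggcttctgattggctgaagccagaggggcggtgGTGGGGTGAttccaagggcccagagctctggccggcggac

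Among detoxifying enzymes, more genes were higher in LTED-E than in LTED-D, and 3 UGT2B enzymes were among those higher in LTED-D. Of 28 glutathione transferase, UDP-glucuronosyltransferase, cytochrome P450 and aldo-keto reductase genes tested, 8 were higher in LTED-E and 4 in LTED-D, with a median log2 fold change of -0.48. NQO1, a quinone reductase, was at 369, 375 and 357 CPM in LTED-D and 1389, 1462 and 1359 CPM in LTED-E (-1.94). AKR1C2, which reduces steroid ketones, was at 0.194, 0.197 and 0.185 CPM against 8.30, 8.50 and 8.17 CPM (-5.42 ± 0.17), and AKR1C3, which makes testosterone and estradiol from weaker precursors, was at least 17.9-fold higher in LTED-E. GSTM1, a glutathione transferase, was at 2.88, 2.84 and 3.78 CPM in LTED-D and 37.6, 35.8 and 35.9 CPM in LTED-E (-3.50 ± 0.07), and LTED-D was the group with the lowest mean, the others running from 32.5 to 119 CPM. UGT2B15, which conjugates androgens, was at 18.9, 20.5 and 19.4 CPM in LTED-D and 3.81, 3.35 and 3.23 CPM in LTED-E (2.50 ± 0.09), beside UGT2B4, UGT2B11 (0.74) and the reductase AKR7A3 (0.88 ± 0.04). The AKR1C, GSTM and UGT2B families are near-identical copies in which reads can be split wrongly, so the values of single members are uncertain.

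NQO1, the AKR1C genes and ME1 are textbook targets of NRF2, the transcription factor of the oxidative stress response. A list of 25 NRF2-regulated genes was therefore written after these values were seen, so that its counts are a description. Of 24 tested, 9 were higher in LTED-E and 2 in LTED-D, with a median of -0.44. ABCC3, an organic anion exporter, was at 2.17, 2.39 and 2.46 CPM in LTED-D and 44, 42.7 and 42.1 CPM in LTED-E (-4.19), and SLC7A11, the cystine importer, at 12.7, 12.5 and 11.9 CPM against 35.8, 35.7 and 34.1 CPM (-1.51 ± 0.05). The pentose phosphate enzyme PGD (-0.78) and TRIM16L (-0.71) were the others. The glutamate-cysteine ligase subunits GCLM (-0.09) and GCLC (-0.02), SRXN1 (0.13) and HMOX1 (0.57) were not DE, and the ferritin light chain FTL (0.70 ± 0.03) was higher in LTED-D. ABCC2, the other gene higher in LTED-D (0.65 ± 0.14), was not called without LTED-D replicate 1 or 2 or LTED-E replicate 1 or 2, at a low of 0.54. NFE2L2, which encodes NRF2, was at 60.4, 55.9 and 60.9 CPM in LTED-D and 93.4, 90.5 and 96.8 CPM in LTED-E (-0.66 ± 0.04, adjusted p = 3.01e-10 in edgeR), and KEAP1, its inhibitor, was not DE (0.15).

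The antioxidant response element TGACNNNGC was searched in the same way, and 11.9% of the 14097 promoters held it, against 5 of 17 promoters of the NRF2 list. That list was written from known NRF2 targets, so its share is a description. Of the 5, TXNRD1, GCLM and GPX2 were not DE. The element stood in 13.1% of promoters of DE genes higher in LTED-E and in 11.7% of those higher in LTED-D. Of the 6 genes of the NRF2 list higher in LTED-E with a promoter sequence, ME1 and PGD held it. In ME1 (chr6:83431052-83431301, minus strand) it begins 137 bases before the start, and in PGD (chr1:10398814-10399063, plus strand) 201 bases before the start and on the opposite strand. They are shown as the matching promoters of genes that were higher in LTED-E, with the match in capitals.
ME1: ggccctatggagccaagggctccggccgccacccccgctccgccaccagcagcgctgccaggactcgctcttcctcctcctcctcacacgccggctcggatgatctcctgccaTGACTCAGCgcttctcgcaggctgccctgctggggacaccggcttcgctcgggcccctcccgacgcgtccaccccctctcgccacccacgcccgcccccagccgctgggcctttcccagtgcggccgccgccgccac
PGD: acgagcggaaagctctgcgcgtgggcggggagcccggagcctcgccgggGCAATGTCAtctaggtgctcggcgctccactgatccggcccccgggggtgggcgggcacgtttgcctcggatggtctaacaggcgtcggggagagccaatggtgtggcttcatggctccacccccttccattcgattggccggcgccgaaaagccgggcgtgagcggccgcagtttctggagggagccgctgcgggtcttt

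**Figure D3:**
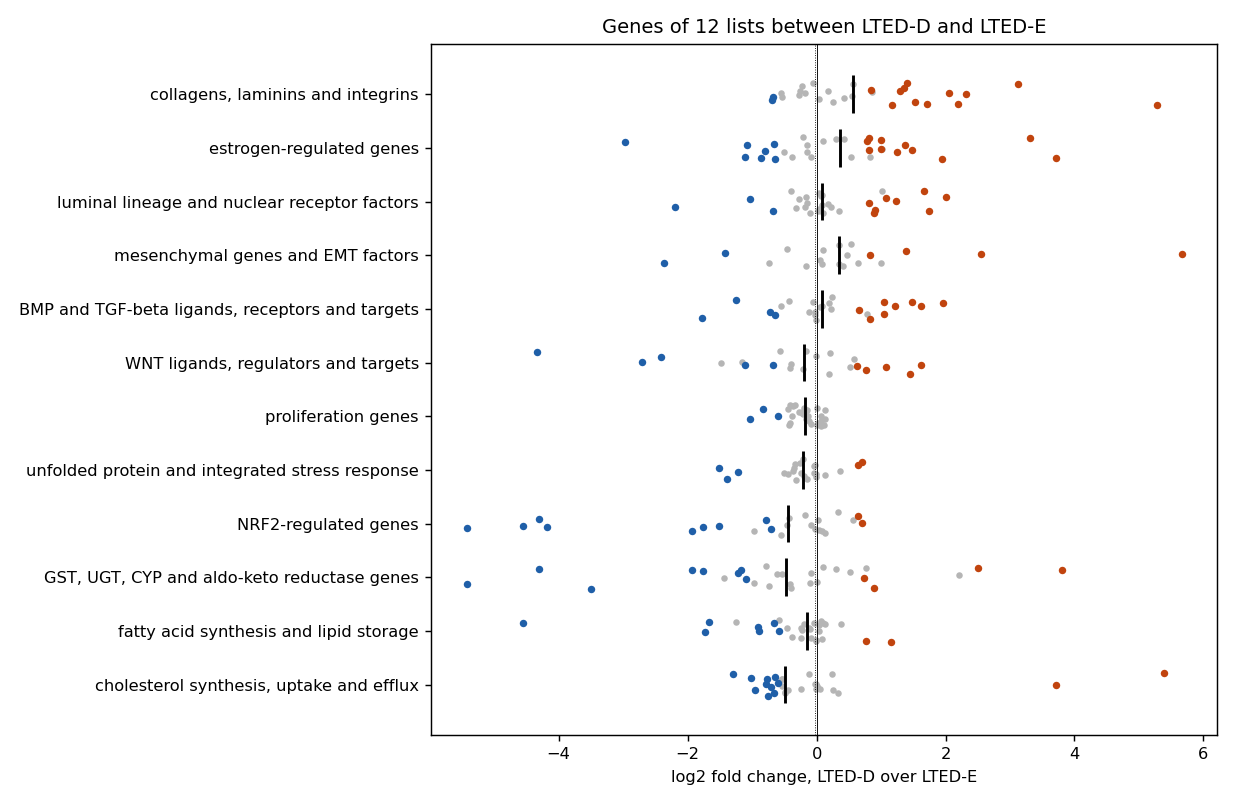
Log2 fold change between LTED-D and LTED-E (x axis, positive where LTED-D is higher) of each tested gene in 12 lists, with DE genes in orange (higher in LTED-D) or blue (higher in LTED-E), other genes in grey and a black bar at the median of each list. The median is 0.56 for collagens, laminins and integrins and -0.49 for the cholesterol list, against -0.03 over all genes tested (dotted line).

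Genes of the extracellular matrix and its receptors that changed were mostly higher in LTED-D. Collagens, laminins and integrins are the structural fibers, the basement membrane and the receptors that tie cells to both. Of 28 tested, 12 were higher in LTED-D and 2 in LTED-E, with a median log2 fold change of 0.56, and the counts were the same without LTED-D replicate 2, where the median was 0.34. The summed level of 8 fibroblast markers was 17.6, 32.4 and 16.5 CPM in LTED-D replicates 1 to 3 and 8.50 to 9.47 CPM in LTED-E, and the median of the 6 tested turned from 0.80 to -0.32 without LTED-D replicate 2. Its part in the matrix genes beyond that was not tested. ITGA5, the α subunit of the fibronectin receptor, was at 16.6, 14.4 and 14.7 CPM in LTED-D and 0.395, 0.275 and 0.484 CPM in LTED-E (5.28 ± 0.17, adjusted p = 1.42e-14 in edgeR). LAMB1, a laminin β chain, was at 201, 203 and 204 CPM against 48.3, 47.5 and 49.8 CPM (2.06), and LAMB3, a chain of the epithelial laminin, changed by 2.32 ± 0.08. ITGB6, which with an αv partner activates latent TGF-β, changed by 3.12 ± 0.14. ITGB5 (-0.67 ± 0.02) and ITGB4 (-0.69 ± 0.08) were higher in LTED-E, while ITGAV (-0.55) and ITGB1 (-0.26) were not DE.

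N-cadherin was the largest change among mesenchymal genes. CDH2, which encodes it, was at 51.5, 50.3 and 52.5 CPM in LTED-D and 1.04, 1.02 and 0.987 CPM in LTED-E (5.66 ± 0.06, adjusted p = 2.56e-21 in edgeR). The parental libraries were at 54.8, 50.6 and 51.8 CPM, so LTED-D overlapped them, while LTED-A and LTED-B had means of 8.48 and 6.93 CPM. Of 19 mesenchymal and EMT genes tested, 4 were higher in LTED-D and 2 in LTED-E (median 0.34). TWIST1, an EMT transcription factor, was at 57.2, 54.6 and 52.8 CPM against 21.1, 21.2 and 20.6 CPM (1.39 ± 0.04). SPARC, a matricellular protein, was at 0.615, 1.46 and 0.741 CPM in LTED-D and 0.222, 0.106 and 0.155 CPM in LTED-E, with the highest value in LTED-D replicate 2. FN1 was also higher in LTED-D (0.83), and VIM was not DE (0.54). TNC, tenascin C, was at 4.30, 4.67 and 4.01 CPM in LTED-D and 23.1, 22.4 and 21.3 CPM in LTED-E (-2.37 ± 0.07), and ZEB1 was higher in LTED-E as well (-1.43 ± 0.15).

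Epithelial junction genes showed no common direction, with 2 of 26 higher in each variant and a median of 0.09. That is 7.69% in each direction, against 7.64% of all genes tested for LTED-D higher and 3.99% for LTED-E higher. CLDN3 (1.16 ± 0.06) and DSG2 (1.23 ± 0.08) were higher in LTED-D, and CLDN7 (-0.69 ± 0.04) and PKP2 (-0.64 ± 0.05) in LTED-E, although PKP2 was not called without LTED-D replicate 2 (-0.58). Keratins had 3 genes higher in LTED-D of 12 and none in LTED-E (median 0.45), which were KRT13, KRT81 and KRT86 with means under 2.4 CPM in both variants, while KRT8, KRT18 and KRT19 had log2 fold changes from -0.08 to 0.08. KRT13 had 3 or fewer counts in every LTED-E library, at least 4.98-fold lower there, and was not called without LTED-D replicate 1 or without LTED-E replicate 2 or 3. Of 22 S100 proteins and annexins, 6 were higher in LTED-E and 4 in LTED-D (median -0.11). The calcium-binding pair S100A8 and S100A9 was at 3.85, 3.32 and 3.73 and 3.91, 3.88 and 4.33 CPM in LTED-D and at 20.1, 17.4 and 19.3 and 15.8, 13.8 and 15.9 CPM in LTED-E. S100A7 (-1.49 ± 0.31) had means under 1 CPM and was not called without any 1 of the LTED-D libraries or without LTED-E replicate 1 or 3, and S100A6 was higher in LTED-E with means of 256 and 534 CPM. ANXA3 (2.40 ± 0.18), S100A10 (1.36 ± 0.07) and S100A1 (1.32 ± 0.13) were higher in LTED-D.

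Antigen presentation genes changed by small amounts, and the largest called log2 fold change was 1.08. CIITA, the master activator of MHC class II genes, was not DE, at 13.9, 12.7 and 13.2 CPM in LTED-D and 14, 14.6 and 14.3 CPM in LTED-E (-0.11 ± 0.05). HLA-DRA, a class II chain, was higher in LTED-D, at 74.2, 76.4 and 76.5 CPM against 43.7, 43.3 and 45.9 CPM (0.77 ± 0.03, adjusted p = 8.48e-13 in edgeR). CD74, the class II chaperone, was at 176, 166 and 181 CPM in LTED-D and 84.2, 82.8 and 90.0 CPM in LTED-E (1.02 ± 0.04). Of 16 class II genes and regulators, 6 were higher in LTED-D and 1 in LTED-E, HLA-DMA (-0.89 ± 0.04), with a median of 0.10 (0.15 without LTED-D replicate 3). HLA-DPB1 changed by 0.89 ± 0.10 and HLA-DOA by 1.08 ± 0.20, the latter not called without LTED-D replicate 1 or 2 or LTED-E replicate 1 or 2. Of 17 class I and peptide loading genes, 3 were higher in LTED-D, HLA-B (0.94 ± 0.04), HLA-C (1.05 ± 0.03) and PSMB8 (1.08 ± 0.11), and HLA-E was higher in LTED-E (-0.65 ± 0.05, not called without LTED-D replicate 1), with a median of 0.14. HLA genes are polymorphic and alike in sequence, so reads may be misassigned among them.

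Interferon-stimulated genes split between the variants, with 6 of 30 higher in LTED-D, 3 higher in LTED-E and a median of 0.07 (0.04 without LTED-D replicate 2). OAS3, an RNA-sensing oligoadenylate synthetase, was at 44.8, 41.9 and 48.1 CPM in LTED-D and 5.31, 4.94 and 4.90 CPM in LTED-E (3.16 ± 0.07). IFIT2 (1.80 ± 0.11) and OASL (1.29 ± 0.19) moved with it. IFITM3, a membrane protein that blocks virus entry, was at 1.81, 2.36 and 1.90 CPM in LTED-D and 28.7, 29.1 and 29.97 CPM in LTED-E (-3.85 ± 0.09), and ISG20 was also higher in LTED-E (-1.23 ± 0.05). IFI44L (-1.23 ± 0.24) was under 1 CPM in both and was not called in 5 of the 6 fits that left out 1 library. ISG15, a ubiquitin-like modifier, was not DE (-0.18).

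The growth factor pathway genes that were DE moved in both directions. FGFR1, the receptor gene amplified in this line, was not DE, at 1619, 1602 and 1667 CPM in LTED-D and 1356, 1358 and 1381 CPM in LTED-E (0.25 ± 0.03). In its pathway 5 of 22 genes were higher in LTED-D and 2 in LTED-E (median 0.09, or 0.15 without LTED-D replicate 1 and 0.01 without LTED-D replicate 3). FGF13, an intracellular FGF homologue, was at 64.5, 66.0 and 64.9 CPM against 13.6, 15.7 and 15.1 CPM (2.14 ± 0.04), and the targets ETV5 (0.97 ± 0.04) and DUSP6 (0.96 ± 0.03) were higher in LTED-D, while the antagonists SPRY4 (-0.61 ± 0.03) and IL17RD (-0.63 ± 0.08) were higher in LTED-E. SPRY4 was not called without LTED-D replicate 2 and IL17RD not without LTED-E replicate 1. Of 14 ERBB genes, 1 was higher in LTED-D, the feedback inhibitor ERRFI1 (1.19 ± 0.04), and 1 in LTED-E, the ligand EGF (-1.49 ± 0.12). Each is 7.14% of the list, against 7.64% of all genes tested for LTED-D higher and 3.99% for LTED-E higher. The ERBB median of -0.11 moved to -0.07 without LTED-D replicate 2, -0.01 without LTED-E replicate 1 and -0.03 without LTED-E replicate 2. Among 21 IGF, insulin and PI3K genes, 5 were higher in each variant. IGFBP3, a binding protein of insulin-like growth factors, was at 69.4, 70.9 and 70.2 CPM in LTED-D and 13.5, 13.6 and 11.8 CPM in LTED-E (2.44 ± 0.05). IGFBP2 (1.46 ± 0.04) and the kinase SGK3 (1.03 ± 0.04) were also higher in LTED-D, and the adaptor IRS4 (-2.45 ± 0.13) and the PI3K subunit PIK3R3 (-1.13 ± 0.03) in LTED-E. The median of that list was 0.02 and turned to -0.03 without LTED-D replicate 2 and to -0.04 with upper-quartile scaling, and it was 0.01 without LTED-D replicate 1 or 3.

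WNT genes were divided, with 5 of 22 higher in each variant (median -0.19). FZD8, a WNT receptor, was at 11.4, 12.1 and 12.6 CPM in LTED-D and 80.9, 77.9 and 77.7 CPM in LTED-E (-2.71 ± 0.07), and NKD1, a negative feedback gene, changed by -2.42 ± 0.08. WNT5A was low in both, at 0.0323, 0.113 and 0.0232 CPM against 1.14, 1.17 and 1.16 CPM (-4.33 ± 0.36). AXIN2, the standard readout of β-catenin activity, was higher in LTED-D, at 11.4, 11.6 and 11.3 CPM against 4.28, 3.90 and 4.36 CPM (1.45 ± 0.08), with FZD7 (1.62 ± 0.13) and WNT3 (1.08 ± 0.12). Of 25 BMP and TGF-β genes, 8 were higher in LTED-D and 4 in LTED-E (median 0.08, or 0.15 without LTED-E replicate 3). The receptors TGFBR2 (1.95 ± 0.24) and BMPR1B (1.62 ± 0.12) and the ligand TGFB1 (1.48 ± 0.16) were higher in LTED-D, all with means under 4 CPM. TGFBR1, the type I receptor, was at 137, 139 and 129.99 CPM in LTED-D and 321, 321 and 320.0 CPM in LTED-E (-1.24 ± 0.03), with the inhibitor of differentiation ID4 (-1.78 ± 0.18) and SMAD9 (-0.73 ± 0.14) on the same side. SMAD9 was not called without LTED-D replicate 2 or 3 or LTED-E replicate 2 or 3. Of 17 Notch genes, 3 were higher in LTED-D, with HEY2 (2.16 ± 0.09) and MAML3 (1.54 ± 0.04) ahead of NOTCH1 (0.62 ± 0.08), and 2 in LTED-E, the ligands DLL1 (-1.27 ± 0.06) and JAG1 (-0.71 ± 0.10). Their median was 0.01 and turned negative in 3 alternatives, to -0.06 with upper-quartile scaling, and moved by more than 1.5 times without LTED-D replicate 1 (0.0118) or 3 (0.0032) or without LTED-E replicate 1 (0.0166) or 2 (-0.0022). NOTCH1 was not called with that scaling or without LTED-E replicate 2.

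Of 30 proliferation genes tested, 3 were higher in LTED-E and none in LTED-D, with a median of -0.18. This share of 10% stands against 11.6% of all genes tested for both directions and 3.99% for LTED-E higher. MKI67, the Ki-67 antigen of cycling cells, was at 215, 199 and 217 CPM in LTED-D and 371, 367 and 390.2 CPM in LTED-E (-0.84 ± 0.05, adjusted p = 2.32e-10 in edgeR), and the ribonucleotide reductase subunit RRM2 changed by -1.03 ± 0.04. AURKA sat at the fold limit (-0.60 ± 0.04) and was not called without LTED-D replicate 3 or with DESeq2. CCND1, the G1 cyclin amplified in this line, was not DE, at 4288, 4192 and 4249 CPM in LTED-D and 4518, 4415 and 4562 CPM in LTED-E (-0.08 ± 0.03). Of 16 G1 genes, the kinase CDK6 (-0.61 ± 0.04) and the inhibitors CDKN2A (-0.85 ± 0.06) and CDKN2D (-0.66 ± 0.07) were higher in LTED-E, CDKN1C (0.88 ± 0.08) was higher in LTED-D, and the median was -0.19. CDK6 was not called without LTED-D replicate 3. Of 25 histone genes, 2 were higher in LTED-D, H1-3 (0.90 ± 0.04) and H3C12 (1.62 ± 0.18), although 20 had a negative log2 fold change (median -0.21). The histone share of 8% stands against 7.64% of all genes tested for LTED-D higher. Among 20 AP-1 and immediate early genes, 4 were higher in LTED-D, with MYC (2.44 ± 0.19, means 1.5 and 0.279 CPM), KLF2 (1.12 ± 0.08) and IER3 (1.05 ± 0.05) leading, and MAFF (-0.81 ± 0.05) was higher in LTED-E (median 0.11).

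Stress and energy genes gave smaller groups. Of 23 genes of the unfolded protein and integrated stress response, 3 were higher in LTED-E and 2 in LTED-D (median -0.21). TRIB3, an ATF4-induced pseudokinase, was at 47.7, 49.1 and 48.8 CPM in LTED-D and 128, 125 and 127 CPM in LTED-E (-1.39 ± 0.03), beside SLC7A11 and CHAC1 (-1.22 ± 0.13), while VLDLR (0.71 ± 0.06) and DDIT4 (0.64 ± 0.05) were higher in LTED-D and the chaperone HSPA5 was not DE (-0.02). Of 29 glycolysis and hypoxia genes, 5 were higher in LTED-D and 3 in LTED-E (median 0.16). The muscle-type phosphofructokinase PFKM (1.12 ± 0.04), ALDOC (1.11 ± 0.06) and NDRG1 (2.57 ± 0.23) were higher in LTED-D, and VEGFA (-0.82 ± 0.04), ADM (-0.79 ± 0.13) and the platelet-type phosphofructokinase PFKP (-0.77 ± 0.07) in LTED-E. All 15 mitochondrially encoded genes had positive log2 fold changes with a median of 0.32, and 1, MT-CO3, was called (0.60 ± 0.06), though not without LTED-D replicate 3 or LTED-E replicate 1. The called share of 6.67% stands against 7.64% of all genes tested for LTED-D higher. The mitochondrial share of counts was 1.04% to 1.29% in LTED-D and 0.907% to 0.98% in LTED-E, and its part in these values was not tested.

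Neuronal and developmental lists moved as well. Of 30 axon guidance genes, 8 were higher in LTED-D and 6 in LTED-E (median -0.20, or -0.10 without LTED-E replicate 3). The repellent ligand SLIT1 was at 33.9, 34.7 and 35.2 CPM in LTED-D and 6.87, 6.55 and 7.28 CPM in LTED-E (2.33 ± 0.04), with SEMA5A (2.82 ± 0.09) and PLXNA4 (2.70 ± 0.18) on the same side. NRP1, a co-receptor of semaphorins and VEGF, was at 4.79, 4.70 and 4.54 CPM against 23.7, 22.5 and 22.2 CPM (-2.29 ± 0.06), and NTN4, a netrin, at 40.01, 38.0 and 39.4 CPM against 113, 112 and 115 CPM (-1.53 ± 0.04), while ROBO2 was under 1 CPM on average in both (-2.89 ± 0.32). Potassium channels were higher in LTED-D in 7 of 23 and in LTED-E in 1, KCNS3 (-0.70 ± 0.04), with a median of 0.30 (0.19 without LTED-D replicate 1). KCNC2 (2.37 ± 0.35), the calcium-activated KCNN4 (1.37 ± 0.10) and KCNC1 (1.03 ± 0.13) led them. Of 34 HOX genes, 7 passed the filter and 3 of these, HOXC13 (2.21 ± 0.13), HOXC4 (1.49 ± 0.16) and HOXC6 (0.85 ± 0.13), were higher in LTED-D (median 0.85). All 3 belong to the HOXC cluster on chromosome 12, a chromosome shifted toward LTED-D that is described below. Of 30 cancer-testis genes, 6 passed the filter and MAGEA1 was higher in LTED-D, at 0.388, 0.169 and 0.278 CPM against 0.0247, 0 and 0 CPM, at least 4.26-fold. The median of those 6 was -0.12 and turned positive without LTED-D replicate 2 (0.03), LTED-D replicate 3 (0.07) or LTED-E replicate 3 (0.02), and it was -0.33 without LTED-D replicate 1 and -0.21 without LTED-E replicate 1.

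Markers of other cell types were checked as lists. Of 10 immune markers, 3 passed the filter, and LYZ (-1.61 ± 0.18) and ITGAM (-1.34 ± 0.07) were higher in LTED-E, with a summed level of 20.5 to 22.5 CPM there and 11.3 to 11.9 CPM in LTED-D over the whole list, and their part in the immune-related results was not tested. Of 8 fibroblast markers, 6 passed and POSTN and COL1A1 (0.85 ± 0.10) were higher in LTED-D. POSTN, the matricellular protein periostin, was at 4.72, 3.77 and 3.89 CPM in LTED-D and 0.0247, 0 and 0.0581 CPM in LTED-E. It was high in all 3 LTED-D libraries, with a fold of at least 63.3. Of 8 endothelial markers, 5 passed, with VWF, the von Willebrand factor, at 2.59, 2.73 and 2.92 CPM in LTED-D and 0.148, 0.233 and 0.116 CPM in LTED-E and PECAM1 higher in LTED-E (-0.68 ± 0.10), a median of -0.56 (-0.34 without LTED-D replicate 2 and -0.27 without LTED-E replicate 2) and a summed level of 6.44 to 6.92 CPM against 4.82 to 5.83 CPM. Of 8 basal or myoepithelial markers, 5 passed and MYLK was higher in LTED-D (1.28 ± 0.07), with a median of -0.06 that turned positive in 7 alternatives, among them without LTED-D replicate 1 (0.04), 2 (0.09) or 3 (0.06) and without LTED-E replicate 1 (0.21), was -0.10 without LTED-E replicate 2 and -0.03 without LTED-E replicate 3, and a summed level of 26.0 to 28.4 CPM against 14.1 to 15.2 CPM. Of the 10 luminal markers 4 were higher in LTED-D, namely MUC1 (2.68 ± 0.14), GATA3, CLDN3 and ESR1, and the median was 0.21.

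Long noncoding RNAs made up 363 of the DE genes. PCAT14, first described in prostate cancer, was at 82.5, 83.4 and 79.8 CPM in LTED-D and 8.38, 8.92 and 8.69 CPM in LTED-E (3.24 ± 0.06). LINC02983 (3.66 ± 0.18) and LINC01234 (3.02 ± 0.10) were the others with the largest changes toward LTED-D among lncRNAs of at least 5 CPM. Toward LTED-E these were LINC02541, at 0.162, 0.0563 and 0.162 CPM in LTED-D and 7.88, 9.13 and 8.62 CPM in LTED-E (-6.04 ± 0.22), LINC01665 (-3.99 ± 0.14) and LINC01619 (-3.71 ± 0.24).

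Beyond single genes, neighbouring genes on 3 chromosomes were shifted together. Genes whose mean over the 6 libraries reached 5 CPM were taken in windows of 40 along each chromosome, moved by 20, and the median log2 fold change of each window was read. On chromosome 16, the windows passed 0.5 in 3 stretches that run from 22910 to 11182186, from 19067614 to 30023270 and from 30064164 to 31042975 (hg38). They hold 160, 80 and 40 genes with medians of 0.54, 0.55 and 0.52. In them 155, 75 and 39 genes had a positive log2 fold change, 68, 35 and 13 were DE with LTED-D higher and none was DE with LTED-E higher. No window of 40 such genes on another chromosome passed 0.5 in either direction. The number of stretches moved with the window, to 7 on chromosome 16 (340 genes) with a minimum of 1 CPM, and to 10 (320 genes) with windows of 20 genes, of which 7 lay on chromosome 16, 2 on chromosome 12 and 1 on chromosome 17, all with LTED-D higher. By library, the median of the first stretch was 0.48 to 0.55 for the 3 LTED-D libraries against the mean of LTED-E. Relative to parental cells, the same genes had medians of 0.52 in LTED-D, -0.04 in LTED-E, 0.05 in LTED-A and 0.03 in LTED-B, so LTED-D was the group that stood apart.

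The shift on chromosome 16 did not span the chromosome. With a limit of 0.3 in place of 0.5, the stretches joined into 1 run of 340 genes up to position 46689518, with a median of 0.52, in which 39.7% of the genes were DE with LTED-D higher and 3 genes with LTED-E higher. The 220 genes after it had a median of -0.01, with 4 higher in LTED-D and 14 higher in LTED-E. Within the run, the translation initiation factor genes EIF3C (1295, 1203 and 1301 CPM in LTED-D and 756, 742 and 791 CPM in LTED-E) and EIF3CL, near-identical copies, changed by 0.73 ± 0.05 and 0.96 ± 0.06. HAPSTR1, a stress response regulator, was at 496, 488 and 467 CPM against 264, 258 and 264 CPM (0.88 ± 0.03). RNF40 (0.73 ± 0.03) and PPP4C (0.68 ± 0.03) were also DE. Not every gene was DE, as RPS2 (0.40), ALDOA (0.30) and MAZ (0.25) had positive values under the fold limit, and EMP2 (-0.01) and CIITA (-0.11) had values near 0.

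Chromosomes 7 and 12 were shifted along their whole length by a smaller amount. The median log2 fold change was 0.28 over 573 genes of chromosome 7 and 0.25 over 628 genes of chromosome 12, and every window was positive, from 0.15 to 0.35 and from 0.15 to 0.42. Of these genes 81.2% and 82.0% had a positive log2 fold change, against 49.5% of the 9893 genes on the chromosomes other than 7, 12 and 16, whose median was -0.00284. Against parental cells the chromosome medians were 0.32 and 0.28 in LTED-D, and 0.06 and 0.04 in LTED-E. The largest difference outside these 3 chromosomes was 1 window of 40 genes on chromosome 17, with a median of 0.43 and 16 genes higher in LTED-D. Together, chromosomes 7 and 12 and the run on chromosome 16 held 312 DE genes higher in LTED-D and 28 higher in LTED-E among 1541 genes, and the rest of the chromosomes 753 and 501 among 9893. CPED1, CALCR, LAMB1 and TWIST1 on chromosome 7 and OAS3, ITGA5 and VWF on chromosome 12 changed by far more than the median of their chromosome. ACACB, ACADS, OASL, DUSP6, KRT81, KRT86, SLC5A8, PFKM, KCNC2 and the HOXC genes named above also lie on chromosome 12. On chromosome 7 lie IGFBP3, NPC1L1 and CLDN3. ECI1 lies in the first stretch of chromosome 16. The part of the regional shifts in the changes of such genes was not tested. Only RNA was measured, and the part of DNA copy number in these shifts was not tested.

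**Figure D4:**
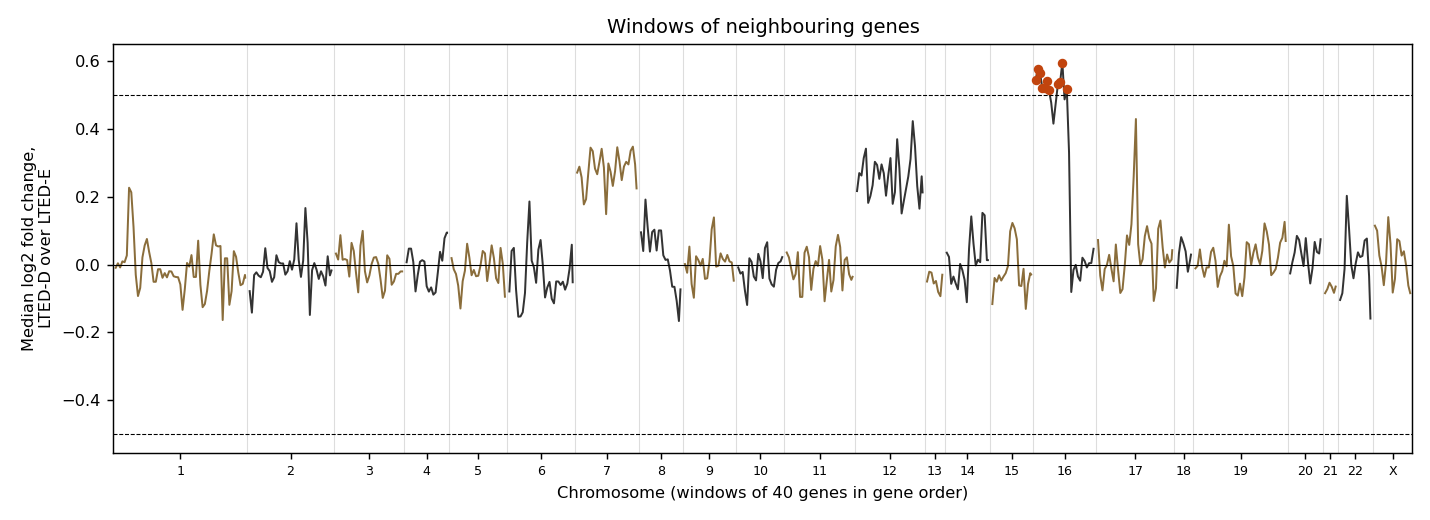
Median log2 fold change (y axis, positive where LTED-D is higher) of windows of 40 genes in gene order along chromosomes 1 to 22 and X (x axis), with dashed lines at 0.5 and -0.5 and windows beyond them as orange points. The orange windows all lie in the first part of chromosome 16, and the lines of chromosomes 7 and 12 run between 0.15 and 0.42.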

How the data were processed

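MM134 parental and LTED cells were grown in triplicate, RNA was isolated, and total RNA libraries were sequenced on a HiSeq 2000. The authors quantified reads with Salmon 0.6.0 on hg38 with Ensembl release 82, and deposited estimated counts per gene, not normalized, for 27 libraries. The strand setting of the quantification is not given in the sources used here. These estimated counts were rounded, and 56434 of the 60619 gene identifiers were matched to GENCODE release 44 for symbols and positions.

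The 15 MM134 libraries were fitted together in edgeR 4.0.16 (R 4.3.3) with its filter on low counts, TMM normalization and the quasi-likelihood test, and LTED-D was contrasted with LTED-E. DE genes had a Benjamini-Hochberg adjusted p under 0.001 and a change of more than 1.5-fold, the thresholds of the study, which used DESeq2. CPM are counts scaled to the TMM-adjusted library size and multiplied by 1e6. The SE of a log2 fold change was its size divided by the square root of its F statistic, and group errors are over 3 libraries. The procedure was tested on simulated counts of 25299 genes. It recovered 56 of 67 genes changed 1.75-fold, 58 of 67 changed 2-fold and 65 of 66 changed 4-fold, with 0 false calls. The changed genes were drawn from those with a mean above 1 CPM, about as many raised as lowered. They were far fewer than the DE genes found here, and the spread was that estimated from these libraries. Recovery at lower levels was therefore not tested.

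The text names the 12 largest changes in each direction among protein-coding DE genes of at least 5 CPM in the higher variant, the 6 largest at 100 CPM or more, the 3 largest per gene list and direction, the 3 largest lncRNAs per direction, the 3 genes of highest level and other named genes in each stretch, and 10 genes central to the study or the line. Other list members, and ARRDC4, NFE2L2 and KEAP1, were chosen after their values were seen. The pair of variants, the 36 gene lists and the tests were chosen with earlier results of these data known. A list of NRF2-regulated genes and the counts of the lists without LTED-D replicate 2 were added after these values were seen. Alternatives covered filters, scaling, thresholds, DESeq2 1.42.0, thinning, the 6 libraries alone, a replicate block and leaving out each library. Promoters are the 250 bases before each RefSeq gene start (GRCh38.p14). The other 12 libraries, of another cell line, were not used here, and some genes that the rules select are not reported here.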

Additional observations from a re-analysis of the deposited data

Results flagged for a closer look

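In 50 DE genes whose values the report gives, all 3 LTED-D libraries lay on one side of the range of the 3 parental libraries and all 3 LTED-E libraries lay on the other. The difference between the changes was not tested, and the same parental libraries stand behind both. These 50 were found among genes named in the report, many of them for the size of their change. The share of all genes tested, or of all DE genes, with this order was not counted. The libraries of the variants did not overlap in 54.4% of all genes tested and in all 3030 DE genes. The values given are log2 fold changes of LTED-D over LTED-E.

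TCEAL8 (8.92) was at 16.6 to 19.2 CPM in parental cells, above that in every LTED-D library and below 0.2 CPM in every LTED-E library. RIBC2 (7.80), SLC5A8 (7.10) and KLHL13 (6.4) showed the same order with parental means of 1.06, 2.51 and 0.271 CPM. IL1R1 (3.56) lay between 99.5 and 105 CPM in the parental libraries, between 193 and 199.9 CPM in LTED-D and between 16.4 and 17.2 CPM in LTED-E. SCUBE2 (3.35) had 64.8 to 69.2 CPM in parental cells. ESR1 (0.82) had parental values of 347 to 369 CPM, between those of the variants given above. The order was the converse for PACSIN3 (-5.72), with 1.1 to 1.15 CPM in parental cells, and for MKI67 (-0.84), with 239 to 289 CPM in parental cells.

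Among the genes named from lists or by position, 26 more were higher in LTED-D and lower in LTED-E than every parental library. ABCA1 (5.39), ITGA5 (5.28), MAGEA1 (4.81) and VWF (4.04) had the largest differences between the variants among these. The estrogen-regulated and luminal genes were SERPINA3 (3.71), SUSD3 (3.31), ESRRG (2.01) and RET (1.37). The genes of adhesion, keratins and mesenchyme were LAMB3 (2.32), KRT81 (1.59), TWIST1 (1.39) and CLDN3 (1.16). The growth factor pathways gave FGF13 (2.14), TGFBR2 (1.95) and IGFBP2 (1.46), and lipid metabolism gave NPC1L1 (3.71) and ECI1 (0.83). The long noncoding RNA PCAT14 (3.24), SEMA5A (2.82), H3C12 (1.62), HOXC4 (1.49), KCNN4 (1.37), H1-3 (0.90), HAPSTR1 (0.88), VLDLR (0.71) and FTL (0.70) were the others. The converse order held for 15 more genes. WNT5A (-4.33), ABCC3 (-4.19), IFITM3 (-3.85), GSTM1 (-3.50), FZD8 (-2.71) and IRS4 (-2.45) differed by over 2 on the log2 scale. CD36 (-1.67), EGF (-1.49), IFI44L (-1.23), PIK3R3 (-1.13), RRM2 (-1.03), MID1IP1 (-0.92), KLF5 (-0.68), NFE2L2 (-0.66) and AURKA (-0.60) followed.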

How the results depend on the processing

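Of the counts of DE genes in either direction and of genes in shifted stretches, 53 of 61 values under the alternatives lay within 1.5 times the reported count. With a minimum fold change of 2 the counts were 1700 in all, 1158 higher in LTED-D and 542 higher in LTED-E, and with no minimum they were 7196, 4239 and 2957. An adjusted p under 0.05 gave 1868 genes higher in LTED-E. Of the list medians under the alternatives, 463 moved by less than the spread between replicates and 55 by more. A window median beyond 0.3 in place of 0.5 gave 920 genes in stretches in place of 280. Leaving out 1 library at a time gave 2770 to 2858 DE genes, 1806 to 1902 higher in LTED-D, 943 to 976 higher in LTED-E and 220 to 300 genes in stretches. DESeq2 gave 2894 DE genes, of which 2813 were among the 3030. Upper-quartile scaling moved the median of all genes tested from -0.03 to -0.09 and the share of DE genes higher in LTED-D from 65.7% to 58.1%. With the replicate number as a block the counts were 2944, 1940 and 1004. The labels do not say that the numbers pair the samples. The correlations of deviations between libraries of the same number were -0.0584, 0.0748 and 0.14, and those between unlike numbers ran from -0.136 to 0.0441. With so few libraries, whose deviations from their own mean depend on each other, these values cannot settle whether the numbers pair the samples.

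Over the genes named by rule and the alternatives, no log2 fold change turned its direction. Of 193 DE genes named by rule, 56 lost their call in at least 1 alternative and 16 in an alternative other than the minimum fold change of 2. Each variant is 1 culture, so independent derivations were not sampled, and genes with a handful of counts per library carry wide errors.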
